A study of Mus musculus with 83 samples.

Results

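Small RNA reads were counted over annotated features of the mouse genome, and 6 of these 32101 features are described here. Of these, 4 carry the name of a sequencing clone in place of a gene symbol, namely AC113316.1, AL844840.2, CT010508.1 and BX470216.1. The other 2, Cdk8 and Ccdc30, are protein-coding genes whose introns hold AC113316.1 and BX470216.1. The 6 features were taken by name, and AC113316.1 and CT010508.1 had been selected on their log2 difference between Dnmt1 KO and control on day 1. Day 1 is therefore given as a description without a test. Which values brought in the other 4 features is not recorded. The files held 83 libraries of mouse cells, of which 36 form the time course used here, with 3 control and 3 Dnmt1 KO libraries on each of days 1, 3, 6, 9, 11 and 25.

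Both genotypes were embryonic stem cells (ESCs) that, per the methods, carried Dnmt1 loxP/loxP alleles and a Cre recombinase switched on by tamoxifen (4OHT), and Dnmt1 KO denotes the cells in which Dnmt1 was deleted that way. Dnmt1 is the enzyme that copies DNA methylation to the new strand after replication. The control libraries are titled as such or as WT, and the labels do not say whether they received 4OHT. The labels give the strain of the ESCs as E14, whereas the methods give C57BL/6. Small RNA was also taken from AGO2 immunoprecipitates, with 4 libraries of each genotype, which the study places on day 9 and for which the labels state no day. Another 30 time course libraries carry the suffix R1, 4 libraries came from primordial germ cells (PGCs) sorted for Oct4-GFP from C57BL/6J embryos, with 1 library from each sex at E13.5 and at E14.5, and 2 are titled none. The R1 suffix is also on 3 PGC libraries, from both sexes at E13.5 and from males at E14.5.

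Groups follow the titles. The genotype tags of the R1-suffixed libraries of days 1 to 9, of the AGO2 libraries and of the none libraries are the reverse of their titles, and the tags call the PGC libraries ESCs. Whole reads per library ranged from 870481 to 6239008 on days 1 to 11 and from 521066 to 815523 on day 25. The AGO2 libraries held 11497724 to 25422978 reads in control and 1152390 to 11520126 in Dnmt1 KO. Among features with 1 to 20 reads, an even number was found for 98.2% to 99.2% in the 30 R1-suffixed time course libraries. The share was 91.9% to 98.5% in the R1-suffixed PGC libraries. In the time course libraries of the same name without the suffix it was 38.0% to 45.2%. The R1-suffixed libraries were therefore kept out of the main comparisons. ESC marker miRNAs summed to 110780 to 209785 RPM (reads scaled to 1000000 reads in the library) in the time course, with none of the 12 at 0, and the 1 neural marker in the table (of 6 listed) was at 0 throughout. Reads of the Dnmt1 feature itself were few in this small RNA fraction (group means of 21.1 to 73.8 RPM) and did not check the deletion. Where nothing states that libraries came from separate cultures, as for the AGO2 libraries, p-values cover only the spread between those libraries.

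MicroRNAs (miRNAs) are made from hairpin transcripts that DROSHA and DICER cut in turn, and the mature strand is loaded into an Argonaute protein such as AGO2. Endogenous siRNAs follow a related route, in which DICER cuts long double-stranded RNA without DROSHA. Fragments of ribosomal RNA, snoRNA or other abundant RNAs reach small RNA libraries as well, but they are not loaded in the same way, so AGO2 immunoprecipitation separates such reads from guide RNAs. Cdk8 encodes the kinase of the Mediator complex, and Ccdc30 encodes a coiled-coil protein.

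The 4 clone-named sequences are shown because their letters differ in kind. All coordinates are on NCBIM37. BX470216.1 (annotated class misc_RNA) lies at chr4:119078639-119078845 on the plus strand, in an intron of Ccdc30, which runs on the minus strand. The capitals mark the arms of the longest predicted helix of its annotated strand.
BX470216.1: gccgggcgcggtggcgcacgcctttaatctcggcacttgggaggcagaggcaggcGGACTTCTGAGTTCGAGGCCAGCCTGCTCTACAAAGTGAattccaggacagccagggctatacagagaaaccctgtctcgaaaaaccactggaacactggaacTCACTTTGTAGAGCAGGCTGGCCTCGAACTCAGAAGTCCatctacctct

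RNAfold paired 39 consecutive bases of this RNA, bases 56 to 94 with bases 159 to 197, at a minimum free energy of -129 kcal/mol. The opposite strand, which is that of Ccdc30, had a longer helix of 47 base pairs, at -136.7 kcal/mol. As background, the letters are those of a B1 element, a short interspersed repeat of rodent genomes, followed by part of another copy in the opposite direction. Of its 186 windows of 22 bases, 155 occurred at more than 1 place in the genome, with a median of 187 places and a maximum of 44281. The 31 windows at 1 place only start between bases 125 and 186. How reads with several places were assigned is not given in the sources used here, so a read of this feature need not have come from this locus.

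**Figure D1:**
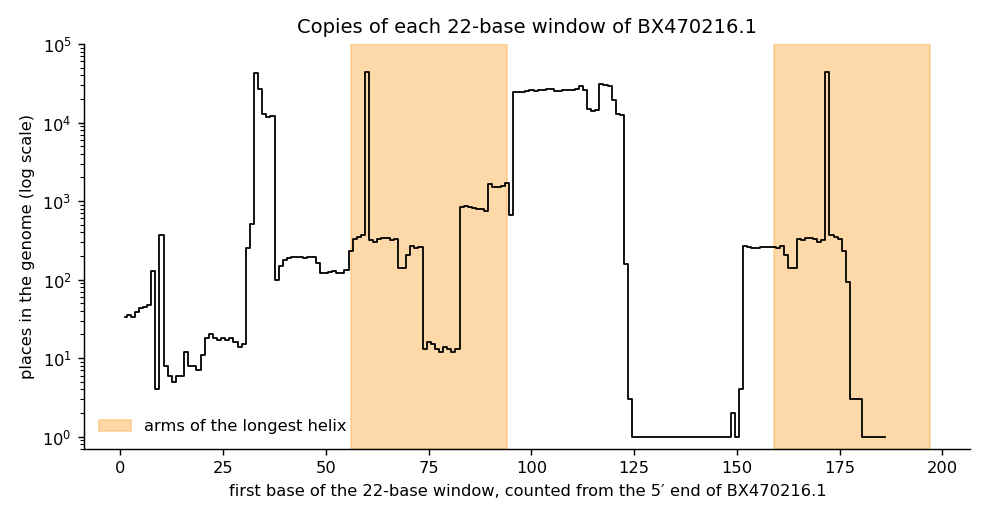
The number of genomic places on NCBIM37 (log scale) at which each 22-base window of BX470216.1 occurs, by the window's first base. The shaded arms of the longest helix of the annotated strand span bases 56 to 94 and 159 to 197. The 31 windows at 1 place are those where the line meets the value 1.

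CT010508.1 (annotated class miRNA) lies at chr9:108470626-108470745 and is annotated on the minus strand, outside other genes' exons. Its plus strand holds the whole 74-base hairpin of miR-191, so that strand is printed, with the mature miR-191-5p (bases 31 to 53) and miR-191-3p (bases 73 to 94) in capitals.
CT010508.1 (plus strand): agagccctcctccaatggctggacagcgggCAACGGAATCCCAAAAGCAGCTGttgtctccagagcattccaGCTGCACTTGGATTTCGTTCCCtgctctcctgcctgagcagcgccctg
mmu-miR-191-5p: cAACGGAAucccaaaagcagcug
mmu-miR-191-3p: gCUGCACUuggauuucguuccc

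The mature sequences are those of RefSeq, with the seed (bases 2 to 8) in capitals. All 99 windows of 22 bases in CT010508.1 occurred at 1 place in the genome. The features within 10 kb of CT010508.1 included Mir425 but none named Mir191. Whether the counting used strand is not given in the sources used here. BX470216.1 and Ccdc30 lie on opposite strands, yet Ccdc30 was above BX470216.1 in all 36 time course libraries, as when strand is ignored. Without strand, reads of miR-191 fall on CT010508.1. Below, counting is taken to have ignored strand, so that Ccdc30 includes the reads of BX470216.1.

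AC113316.1 (class miRNA) lies at chr5:147072579-147072660 on the plus strand, in an intron of Cdk8 on the same strand. AL844840.2 (class miRNA) lies at chr2:72850911-72850984 on the minus strand, between genes. Capitals mark the bases in windows of 22 that also occur elsewhere in the genome.
AC113316.1: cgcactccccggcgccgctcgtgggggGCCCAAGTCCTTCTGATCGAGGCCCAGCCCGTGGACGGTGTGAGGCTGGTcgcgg
AL844840.2: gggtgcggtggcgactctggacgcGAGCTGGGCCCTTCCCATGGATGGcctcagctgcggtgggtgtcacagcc

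Of the 61 windows of AC113316.1, 32 were at 1 place, and the other 29 recurred at chr1:133470397-133470446, where the table has no feature. Of the 53 windows of AL844840.2, 50 were at 1 place, and the other 3 recurred within Rassf7 on chromosome 7. Reads of the recurring windows need not have come from these loci. Inexact matches also lay elsewhere. AC113316.1 aligned to chromosome 1 (96.6% identity over 59 bases) and chromosome 6 (84.6% over 78 bases). AL844840.2 aligned to chromosome 19 (90.7% over 54 bases) and chromosome 1 (87.0% over 54 bases). The longest predicted helix of the annotated strand was 7 base pairs in AC113316.1 and 5 in AL844840.2. AC113316.1 shared no run of 12 or more bases with a RefSeq miRNA hairpin and AL844840.2 shared 12 bases, against 74 in CT010508.1. As background, stretches much like both are found in the large-subunit ribosomal RNA. The sequence of that RNA was not used here, so this likeness was not tested.

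The first question was whether the loci were bound by AGO2 in the manner of miRNAs. BX470216.1 was enriched in the AGO2 immunoprecipitates, CT010508.1 was at a similar level in both fractions, and AC113316.1 and AL844840.2 were almost absent from AGO2. AGO2 libraries were set against the total libraries of day 9 in one limma model on log2(RPM + 1), and p-values were adjusted by Benjamini-Hochberg over 1564 features. Of those, 90.2% passed an adjusted p of 0.05 in control and 89.8% in Dnmt1 KO, with 79.5% and 74.8% lower in AGO2, so that a lower level alone says little of a member. Of the 6 features, 5 passed in each genotype, 2 higher and 3 lower, against 10.7% (control) and 15.0% (Dnmt1 KO) of all features higher. Cdk8 and Ccdc30 include the reads of AC113316.1 and BX470216.1, so these are not 5 separate calls.

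BX470216.1 measured 653.2, 699.8 and 618.9 RPM in the control total libraries of day 9 and 2114, 2041, 2807 and 2635 RPM in the control AGO2 libraries. In Dnmt1 KO the total libraries held 1045, 1034 and 985.1 RPM and the AGO2 libraries 3908, 3259, 6187 and 5557 RPM. Every AGO2 library was above every total library of its genotype. The log2 difference was 1.85 ± 0.21 (SE) in control (limma, adjusted p = 4.57e-07) and 2.16 ± 0.21 in Dnmt1 KO (adjusted p = 7.48e-08). A library titled none, of the control genotype and with 57155 reads, held 1855 RPM of BX470216.1 (Wilson 95% interval 1534 to 2242), an interval that takes in the lowest 2 control AGO2 libraries. The methods describe a pull-down without serum, but the labels do not say whether this library is one, and so no level of BX470216.1 in a known negative control stands beside the enrichment. The feature gave 89.1% to 94.9% of all misc_RNA reads in the AGO2 libraries, against 3.94% to 16.1% in the total libraries of days 1 to 11.

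The enrichment of BX470216.1 exceeded that of 269 of 285 miRNA features in control and 266 of 285 in Dnmt1 KO. The other 8 misc_RNA features tested were all lower in AGO2, with a median log2 difference of -5.87 in control. Its mean level ranked 197th of all features in the control total libraries of days 1 to 11 and 49th in the control AGO2 libraries. These are levels per feature, not per length.

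Ccdc30 was counted over its whole span and, with strand taken as ignored, includes the reads of BX470216.1. It differed between AGO2 and total by 1.72 ± 0.22 on the log2 scale in control (adjusted p = 1.77e-06) and by 2.02 ± 0.22 in Dnmt1 KO (adjusted p = 2.83e-07). BX470216.1 covers 0.224% of the span of Ccdc30. With its reads taken out, the rest of Ccdc30 averaged 131 RPM in total and 231 RPM in AGO2 for control, and 250 and 616 RPM for Dnmt1 KO. That remainder was still higher in AGO2, by 0.75 in control (adjusted p = 0.0465) and 1.18 in Dnmt1 KO (adjusted p = 0.00381); over all alternatives of these comparisons the adjusted p of Ccdc30 stayed at or below these values.

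CT010508.1 was among the most abundant features, 19th of 32101 in both the control total and the control AGO2 libraries. It measured 11169, 11076 and 11023 RPM in control total libraries of day 9, and 11442, 11101, 11572 and 8729 RPM in control AGO2. In Dnmt1 KO it measured 12597, 11183 and 10960 RPM in total and 19828, 13846, 9017 and 9312 RPM in AGO2. The ranges overlapped in both genotypes. The log2 difference was -0.06 ± 0.22 in control (adjusted p = 0.802) and 0.09 ± 0.22 in Dnmt1 KO (adjusted p = 0.694).

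The direction for CT010508.1 depended on the scaling. With TMM factors between AGO2 and total libraries it was higher in AGO2 by 1.70 in control and 1.28 in Dnmt1 KO, both past the threshold. Scaled to the miRNA reads of each library it was lower, with differences of -0.84 and -0.65 on the log2 scale, again past the threshold. The median over all features was -3.44 in control and -3.33 in Dnmt1 KO with library totals, -2.43 and -2.40 with TMM, and -4.18 and -4.05 when scaled to miRNA reads. The other 5 features kept their direction and their call under both scalings. Among 285 miRNA features in control, whose median was 0.02, 149 were above CT010508.1 and 136 below it. In Dnmt1 KO the median was 0.63, and 195 were above it and 90 below. With library totals, Mir425, which lies 363 bases away on the plus strand, was higher in AGO2 by 0.81 in control (limma, adjusted p = 0.00288). In Dnmt1 KO it was higher by 1.29 (adjusted p = 4.99e-05). Whether these differences of Mir425 hold under the other scalings is not given here.

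AC113316.1 measured 1470, 886.3 and 888.5 RPM in control total libraries and 1.98, 1.65, 0.776 and 1.298 RPM in control AGO2. In Dnmt1 KO it measured 1809, 1576 and 1751 RPM in total and 15.6, 22.5, 2.96 and 2.78 RPM in AGO2. The mean of the total libraries was 759 times the mean of the AGO2 libraries in control and 156 times in Dnmt1 KO. The log2 difference was -8.79 ± 0.53 (adjusted p = 2.37e-10) and -7.61 ± 0.53 (adjusted p = 1.47e-09).

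AL844840.2 measured 2061, 1390 and 1507 RPM in control total libraries and 4.64, 3.91, 3.40 and 2.99 RPM in control AGO2. In Dnmt1 KO the values were 2622, 2394 and 2592 RPM in total and 42.5, 39.3, 5.63 and 5.47 RPM in AGO2. The log2 difference was -8.44 ± 0.57 in control (adjusted p = 1.03e-09) and -7.26 ± 0.57 in Dnmt1 KO (adjusted p = 7.03e-09). In both loci, replicates 1 and 2 of AGO2 in Dnmt1 KO stood above replicates 3 and 4. Those 2 libraries were also the shallowest of the 8 (1152390 and 1553877 reads), and the part of depth in these levels was not tested.

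Both loci are annotated as miRNAs, yet in control all 285 other miRNA features had a higher AGO2 difference than either. In Dnmt1 KO 284 of 285 did. Among classes of other RNAs, the values lay within the range of the C/D snoRNAs (RNAs that guide ribosomal RNA methylation) and below most features of the rest. Of 130 C/D snoRNA features, all of which were lower in AGO2, 43 were below AC113316.1 and 60 below AL844840.2 in control. In Dnmt1 KO these numbers were 68 and 75. All 7 rRNA features were above both loci in both genotypes. In control 16 of 17 snRNA, 11 of 14 mitochondrial tRNA and 7 of 8 other misc_RNA features were above both. The medians in control were -8.26 for C/D snoRNAs, -6.76 for 17 snRNA features, -6.56 for 14 mitochondrial tRNA features and -5.14 for 7 rRNA features.

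Cdk8 held 3.95, 3.91, 2.33 and 2.67 RPM in control AGO2 against 1808, 1154 and 1178 RPM in total. The log2 difference was -8.35 ± 0.49 in control (adjusted p = 1.57e-10) and -7.24 ± 0.49 in Dnmt1 KO (adjusted p = 9.59e-10). AC113316.1 covers 0.115% of the span of Cdk8 and gave 44.4% to 84.6% of its reads in the time course. Without it, the rest of Cdk8 averaged 298 RPM in total and 1.79 RPM in AGO2 for control. The other 2 Mediator kinase module genes tested were also lower in AGO2, and 760 protein-coding features without a miRNA had a median of -3.55.

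**Figure D2:**
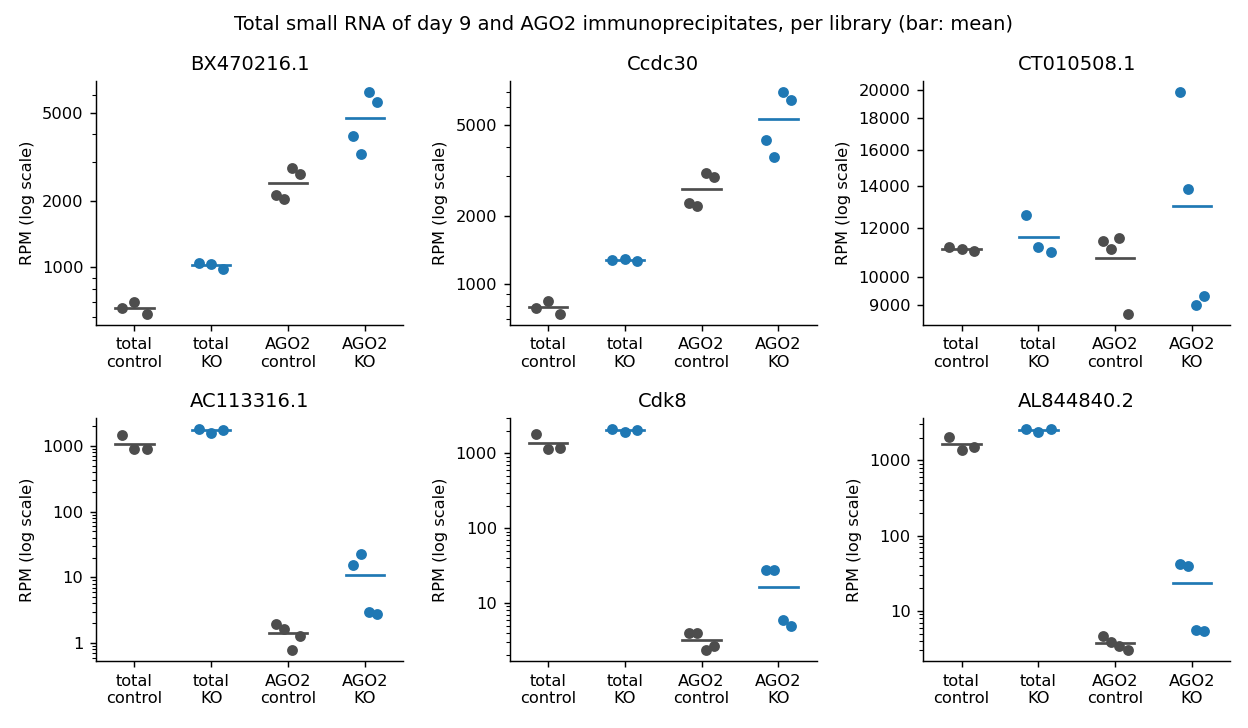
RPM (log scale) of each feature in each total library of day 9 (3 per genotype) and each AGO2 library (4 per genotype), with bars at the means. BX470216.1 and Ccdc30 sit higher in AGO2, CT010508.1 overlaps between fractions, and AC113316.1, Cdk8 and AL844840.2 fall from 886.3 RPM or more to 42.5 RPM or less.

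**Figure D3:**
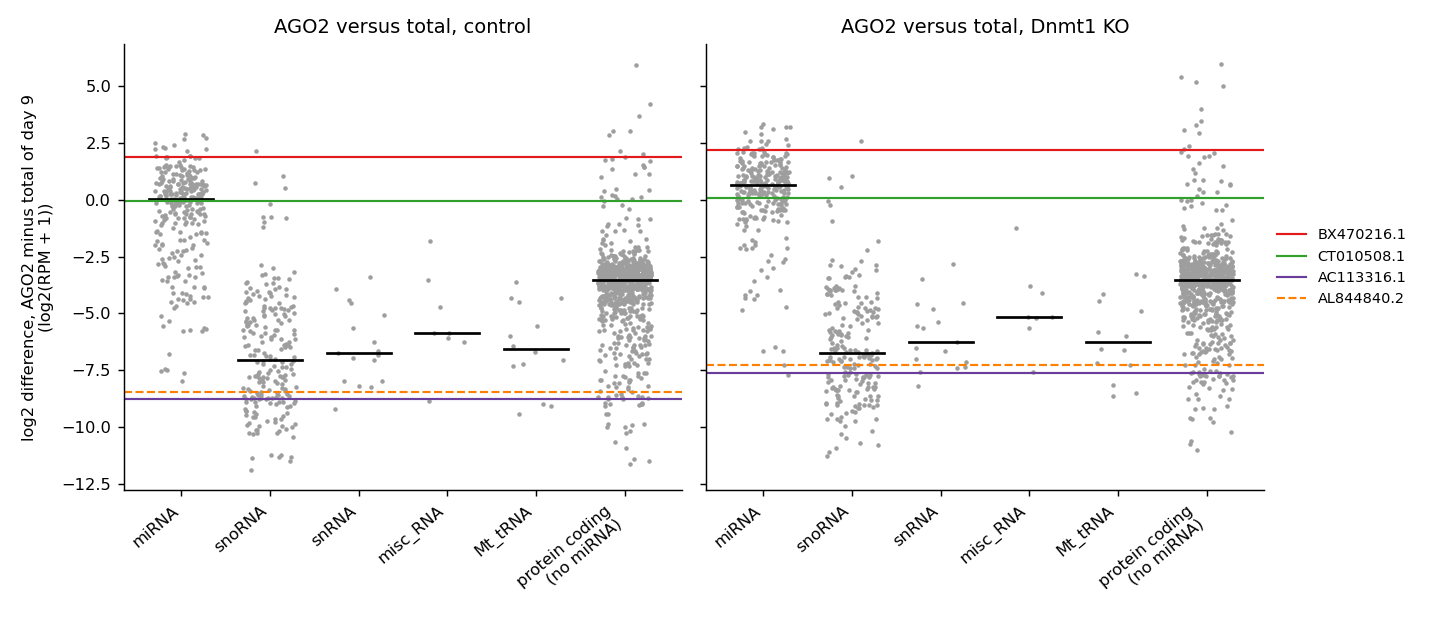
The log2 difference between AGO2 and total libraries of day 9 for every feature tested (points) by annotated class, with class medians as black bars, in control (left) and Dnmt1 KO (right). Coloured lines give the clone-named loci, with BX470216.1 at 1.85 and 2.16, CT010508.1 near 0, and AC113316.1 and AL844840.2 below -7.

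Clone names as such did not mark one behaviour. Of 46 other clone-named small RNA features tested, 5 were higher and 30 lower in AGO2 in control, with a median of -3.85. Those annotated as miRNA (28 features) had a median of -0.11, with 5 higher and 13 lower. Features of the miR-290 cluster, the miRNAs most typical of ESCs, had a median of 0.54 over 7 features, with 4 higher and 1 lower.

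The AGO2 difference was next compared between genotypes. None (0) of the 6 features had a difference between genotypes that passed in limma (lowest unadjusted p 0.1305, for Cdk8). Of all features, 8.31% passed with a greater AGO2 difference in Dnmt1 KO and 2.94% with a smaller one. The estimates were 1.17 ± 0.75 for AC113316.1 (adjusted p = 0.316), 1.18 ± 0.81 for AL844840.2 (adjusted p = 0.355) and 0.31 ± 0.29 for BX470216.1 (adjusted p = 0.516). Cdk8 gave 1.11 ± 0.69 and CT010508.1 gave 0.15 ± 0.31. With the total libraries of days 1 to 11 in place of day 9, the estimates of AC113316.1 (1.56), Cdk8 (1.45) and AL844840.2 (1.66) passed. With AGO2 replicates 3 and 4 only, they were 0.24, 0.27 and 0.01.

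Within the AGO2 immunoprecipitates 456 features passed the filter on low values, and BX470216.1, Ccdc30 and CT010508.1 were among them. None (0) of these 3 passed an adjusted p of 0.05 in limma without a block for replicate number, whereas 36.4% of all features passed. BX470216.1 and Ccdc30 had unadjusted p of 0.02856 and 0.02701 in that fit, and both passed with the block, as given below. BX470216.1 was higher in each Dnmt1 KO library than in any control library. Its log2 difference was 0.69 ± 0.26 (limma, adjusted p = 0.0731). AGO2 libraries of the same number deviated together, although control libraries 1 and 3 correlated best with Dnmt1 KO libraries 2 and 4. With the replicate number as a block the adjusted p for BX470216.1 was 0.00765. Across its 15 alternatives, the adjusted p ran from 0.00113 to 0.728 and the log2 difference from -0.22 (no filter on low values) to 0.94 (library totals). Ccdc30 gave 0.73 ± 0.27 (adjusted p = 0.0712, and 0.00591 with the block, over a range of 0.000572 to 0.779). CT010508.1 gave -0.05 ± 0.25 (adjusted p = 0.930). The 3 features that the filter left out gave 0.99 (AC113316.1), 0.70 (Cdk8) and 0.79 (AL844840.2) without it, none of which passed.

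The second question was how the loci responded to Dnmt1 deletion by day. BX470216.1 rose in Dnmt1 KO on every day from 3 to 25, AC113316.1 and AL844840.2 fell on day 3 and rose on days 9 and 25, and CT010508.1, of these tested days, passed only on day 25, when it fell. All days were fitted together in limma on log2(RPM + 1) after TMM scaling, with adjustment over 2582 features. In bulk samples, fewer cells that make an RNA and less RNA per cell cannot be told apart.

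On day 1, BX470216.1 overlapped between genotypes, with 745.1, 742.5 and 788.1 RPM in control, against 759.8, 798.8 and 915.2 RPM in Dnmt1 KO. From day 3 on, every Dnmt1 KO library was above every control library of its day. Control libraries held 686.3, 672.0 and 596.3 RPM on day 3 and Dnmt1 KO libraries 1191, 1299 and 1226 RPM, a log2 difference of 0.95 ± 0.10 (adjusted p = 1.34e-08). Day 3 had 5 of the 6 features past the threshold, where 6.24% of all features were. Day 6 had 2 (23.0% of all), day 9 had 5 (18.4%), day 11 had 2 (8.64%) and day 25 had all 6 (35.0%). Over days 3 to 25 on average, 4 of 6 passed (29.8% of all features). These are not counts of 6 separate features, since Cdk8 and Ccdc30 include the reads of AC113316.1 and BX470216.1. Without those reads Cdk8 did not pass on days 3, 9 or 25 or on average.

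On day 6 the control libraries measured 907.8, 867.1 and 935.4 RPM and the Dnmt1 KO libraries 1786, 1635 and 1553 RPM (log2 difference 0.77 ± 0.10, adjusted p = 1.74e-07). Day 9, given above, showed a log2 difference of 0.75 ± 0.10 (adjusted p = 2.47e-07). Day 11 had 562.6, 564.5 and 600.2 RPM in control libraries and 1327, 1234 and 1095 RPM in Dnmt1 KO libraries (1.16 ± 0.10, adjusted p = 5.27e-12). The ratio of mean RPM ran from 1.55 to 2.12 over days 3 to 11.

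Day 25 stood apart for BX470216.1. Control libraries held 199.0, 178.5 and 250.1 RPM and Dnmt1 KO libraries 1582, 1497 and 1294 RPM, with a log2 difference of 2.91 ± 0.10 (adjusted p = 2.32e-25) and a ratio of means of 6.97. The control level of day 25 was below every control library of days 1 to 11 (562.6 to 935.4 RPM), whereas the Dnmt1 KO level was within the range of the Dnmt1 KO libraries of days 1 to 11 (759.8 to 1786 RPM). Averaged over days 3 to 25 the log2 difference was 1.31 ± 0.05 (adjusted p = 1.72e-25), and the effect differed among those days (limma F test, adjusted p = 4.55e-16). All 6 features, of which Cdk8 and Ccdc30 include the reads of the loci inside them, passed that F test, as did 31.5% of all features.

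Ccdc30 followed the locus in its intron, with log2 differences of 0.96, 0.80, 0.81, 1.21 and 2.89 on days 3, 6, 9, 11 and 25. With strand taken as ignored, BX470216.1 supplied 78.4% to 89.9% of the reads of Ccdc30. The remainder of Ccdc30 averaged 113 RPM in control, against 231 RPM in Dnmt1 KO on day 3, and 28.4 and 175 RPM on day 25. Without the inner reads Ccdc30 was still higher on each day from 3 to 25, by 1.04, 0.97, 1.04, 1.52 and 2.71 on the log2 scale, each past the threshold (adjusted p at most 6.71e-07 on these days). Whether the reads of that remainder fall on repeats was not tested.

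**Figure D4:**
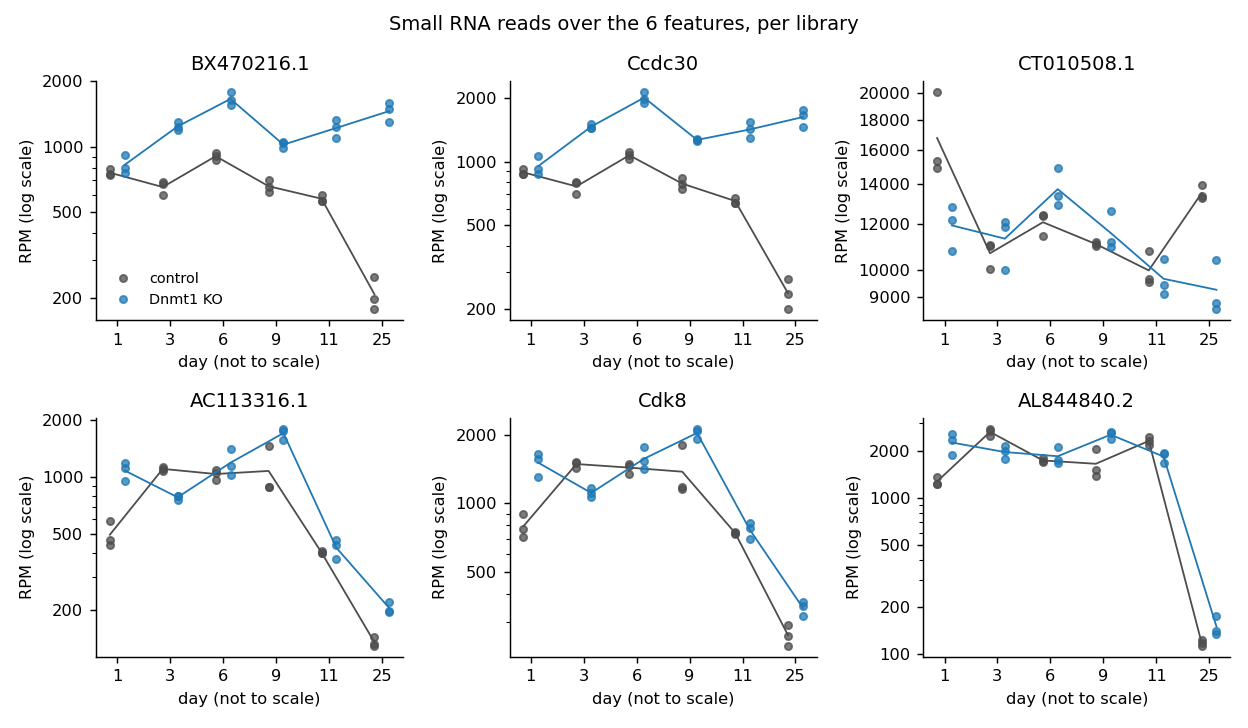
RPM (log scale) of each feature in each of the 36 time course libraries by day, control in grey and Dnmt1 KO in blue, with lines through the means. The genotypes separate for BX470216.1 and Ccdc30 from day 3 on, and AC113316.1, Cdk8 and AL844840.2 drop in both genotypes on day 25.

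AC113316.1 measured 589.1, 466.2 and 440.0 RPM in control libraries and 1185, 1122 and 954.5 RPM in Dnmt1 KO libraries on day 1, a log2 difference of 1.04 that belongs to how it was chosen. AL844840.2 measured 1366, 1225 and 1230 RPM and 2546, 2350 and 1881 RPM on that day. On day 1, 3.80% of all features passed the threshold, and nothing is read from this share for features chosen on that day.

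On day 3 the order was the other way round. AC113316.1 held 1110, 1135 and 1082 RPM in control, against 802.2, 758.1 and 795.9 RPM in Dnmt1 KO, a log2 difference of -0.48 ± 0.13 (adjusted p = 0.0224, and up to 0.344 over its alternatives). AL844840.2 held 2683, 2774 and 2474 RPM in control libraries and 1763, 1986 and 2144 RPM in Dnmt1 KO libraries, a difference of -0.41 ± 0.12 (adjusted p = 0.0257, up to 0.219). Cdk8 gave -0.40 ± 0.12 (adjusted p = 0.0393, up to 0.454). The call of AC113316.1 ended without Dnmt1 KO replicate 2 (adjusted p = 0.0662) or control replicate 1 (0.0603), 2 (0.0872) or 3 (0.0544). That of AL844840.2 ended without Dnmt1 KO replicate 1 (0.123) or 2 (0.0507) or control replicate 1 (0.0750) or 2 (0.129), and that of Cdk8 without any of these 5 libraries (0.0754 to 0.142). The R1-suffixed libraries and the fit without a filter ended all 3 calls.

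On day 6 neither locus passed. AC113316.1 ranged from 974.0 to 1096 RPM in control, against 1031 to 1404 RPM in Dnmt1 KO (log2 difference 0.08 ± 0.13), and AL844840.2 from 1692 to 1792 RPM and 1664 to 2117 RPM (-0.02 ± 0.12). On day 9, with the values given above, AC113316.1 rose by 0.82 ± 0.13 (adjusted p = 6.87e-06) and AL844840.2 by 0.75 ± 0.12 (adjusted p = 3.07e-06). Replicate 1 of the day 9 controls was high in both loci, and without it the differences were 1.07 and 0.93.

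On day 11 AC113316.1 was lower than before in both genotypes, with 399.4, 407.8 and 397.5 RPM in control libraries and 465.8, 371.8 and 439.0 RPM in Dnmt1 KO libraries (0.16 ± 0.13, adjusted p = 0.657). AL844840.2 held 2170, 2302 and 2468 RPM in control, against 1903, 1665 and 1946 RPM in Dnmt1 KO. These groups did not overlap, but the difference of -0.25 ± 0.12 did not pass (adjusted p = 0.258), except when day 11 was fitted alone.

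On day 25 both loci were far lower than on days 1 to 11. AC113316.1 held 129.1, 132.4 and 143.5 RPM in control libraries and 197.7, 196.0 and 219.8 RPM in Dnmt1 KO libraries, a log2 difference of 0.70 ± 0.13 (adjusted p = 5.78e-05). AL844840.2 held 123.7, 113.2 and 117.7 RPM in control, against 176.8, 134.5 and 140.2 RPM in Dnmt1 KO, a difference of 0.45 ± 0.12 (adjusted p = 0.00278). The latter lost its call without the filter, with day 25 fitted alone and with voom on reads. The lowest library of days 1 to 11 held 371.8 RPM of AC113316.1 and 1225 RPM of AL844840.2. The sum of 7 fibroblast or feeder marker miRNAs ran from 15715 to 36546 RPM on days 1 to 11 and from 7165 to 8200 RPM on day 25, with 1 of the 7 at 0 in every library of each span. Its part in the levels of these loci was not tested. On days 3 and 9 the same sum was 20410 to 26201 RPM in control libraries and 27188 to 36546 RPM in Dnmt1 KO libraries. It was also higher in Dnmt1 KO on day 6 (20946 to 22919 against 15715 to 17155 RPM) and day 11 (21992 to 24712 against 19739 to 21048 RPM). On day 25 it was lower in Dnmt1 KO (7165 to 7339 against 7438 to 8200 RPM), and on day 1 the genotypes overlapped.

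Averaged over days 3 to 25, AC113316.1 differed by 0.26 ± 0.06 (adjusted p = 0.000764) and AL844840.2 by 0.10 ± 0.05 (adjusted p = 0.144). Without replicate 1 of the day 9 controls the latter was 0.13 and passed (adjusted p = 0.0244). The effect differed among days for both (F test, adjusted p = 2.50e-06 and 7.65e-07). Days 3 and 9 had opposite signs in all 3 of AC113316.1, Cdk8 and AL844840.2. AC113316.1 and Cdk8 share reads, whereas AL844840.2 lies on another chromosome.

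Cdk8 as a whole was higher on day 9 by 0.71 ± 0.12 (adjusted p = 1.77e-05). The difference was 0.51 ± 0.12 for day 25 (adjusted p = 0.000979) and 0.19 ± 0.05 over days 3 to 25 (adjusted p = 0.00583). Without the reads of AC113316.1 none of these passed. Day 3 then gave -0.22 (adjusted p = 0.454), day 9 gave 0.28 (adjusted p = 0.197), day 25 gave 0.30 (adjusted p = 0.103), and the average was 0.05 (adjusted p = 0.590). Its levels were 267.6 to 413.6 RPM in control, against 261.1 to 472.3 RPM in Dnmt1 KO on days 1 to 11. Of 4 other Mediator kinase module genes tested, 1 was higher and 1 lower over days 3 to 25.

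CT010508.1 measured 14906, 15338 and 20099 RPM in control libraries and 10786, 12201 and 12791 RPM in Dnmt1 KO libraries on day 1, the difference by which it had been noticed. From day 3 to day 11 it ranged from 9570 to 12413 RPM in control, against from 9123 to 14952 RPM in Dnmt1 KO, and no day passed, with log2 differences from 0.04 to 0.18. On day 6 the groups did not overlap, with 11452 to 12413 RPM in control and 12895 to 14952 RPM in Dnmt1 KO. The limma difference of day 6 was 0.08 ± 0.11 (adjusted p = 0.659). On day 25 control libraries held 13254, 13382 and 13963 RPM and Dnmt1 KO libraries 8800, 10424 and 8594 RPM. This difference of -0.44 ± 0.11 passed (adjusted p = 0.00136), and the groups did not overlap. The average over days 3 to 25 was -0.01 ± 0.05 (adjusted p = 0.895).

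Mir425, beside CT010508.1, was tested in the same fit. It passed on day 11 with a log2 difference of 0.36 (adjusted p = 0.0175) and on day 25 with -0.55 (adjusted p = 4.11e-05). Its mean level on day 25 was 373 RPM in control libraries and 236 RPM in Dnmt1 KO libraries. The protein-coding neighbours of CT010508.1 within 10 kb were near the bottom of the scale, with at most 15.3 RPM (Qrich1) in any time course library. All miR-290 cluster features that passed on day 25 (5 of 7) were lower in Dnmt1 KO as well. Of 284 other miRNA features tested, 89 were higher and 107 lower on day 25, with a median log2 difference of -0.23.

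**Figure D5:**
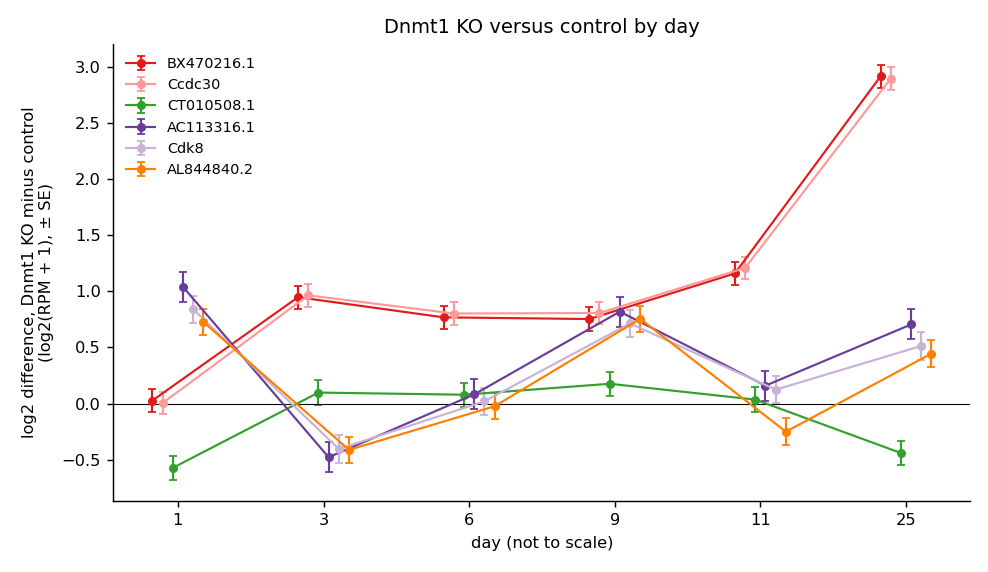
The log2 difference between Dnmt1 KO and control (points, ± SE from limma) of each feature by day. BX470216.1 and Ccdc30 are near 0 on day 1 and reach 2.91 and 2.89 on day 25, while AC113316.1, Cdk8 and AL844840.2 change sign between days 1, 3 and 9.

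Among 48 other clone-named small RNA features tested, day 3 had 2 higher and 1 lower and day 6 had 8 higher and 10 lower. Day 9 had 11 higher and 4 lower, day 11 had 7 higher and 1 lower, and day 25 had 12 higher and 10 lower. Over days 3 to 25, 14 were higher and 9 lower, with a median log2 difference of 0.00, against 17.4% higher and 12.4% lower of all features with a median of 0.01. The 9 other misc_RNA features had 2 higher and 1 lower over the same days, and they ran from -0.20 to 0.37 on the log2 scale, where BX470216.1 averaged 1.31. Among 135 C/D snoRNA features 18 were higher and 30 lower.

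The features whose 12 group means were most like each locus were named by Pearson's r over 2582 features, as a description. Group means share libraries and depth. BX470216.1 was most like Mir410 (r = 0.920), Mir136 (0.919) and Mir300 (0.917), all on chromosome 12, and Ccdc30 was most like Mir410 (0.917), Mir136 (0.916) and Mir196a-1 (0.915). CT010508.1 was most like Mir425 (0.836), Mir148b (0.807) and Copz1 (0.806), and Mir148b lies inside Copz1. AL844840.2 was most like Slc22a29 (0.977), Fam114a1 (0.975) and Mir574 (0.974), the last of which lies inside Fam114a1. AC113316.1 was most like Atp5o (0.951), Itsn1 (0.949) and Klhl32 (0.948), and Cdk8 like AC154124.1 (0.963), Ccne2 (0.958) and Itsn1 (0.957). Itsn1 lies inside the span of Atp5o. Among the members, AC113316.1 and AL844840.2 had r = 0.851 and BX470216.1 and CT010508.1 had r = -0.06.

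In PGCs, where each group is 1 library without replicates, BX470216.1 was at 1807 RPM (E13.5 female), 1344 RPM (E13.5 male), 801 RPM (E14.5 female) and 852 RPM (E14.5 male). The highest and lowest of these had Wilson 95% intervals of 1758 to 1857 and 772 to 832 RPM, which cover counting error only. CT010508.1 ranged from 5183 to 7002 RPM, below every time course library (8594 RPM or more). AC113316.1 held 406 to 517 RPM and AL844840.2 150 to 334 RPM. Their ranges in ESCs of days 1 to 11 were 372 to 1809 RPM and 1225 to 2774 RPM. The summed ESC markers were 12189 to 24377 RPM in the PGC libraries.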

How the data were processed

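Small RNA was sequenced in 83 libraries, 8 of them from AGO2 immunoprecipitates. Per the methods and the processing notes, the authors trimmed reads with Trim Galore and kept those of 20 to 24 nucleotides. They mapped these to NCBIM37 with Bowtie2 and counted overlaps with annotated features in SeqMonk. The notes give Trim Galore 0.3.5 and Bowtie2 2.2.9, whereas the methods name a later version of Trim Galore. The deposited values are RPKM per feature. How strand and reads with several places were treated is not given in the sources used here.

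RPM was RPKM times the span in kb. Each value was a whole multiple of what 1 read is worth (100% of values within 5% of a step), which gave read counts and depths. Features of at least 10 RPM in at least 3 libraries of a fit were tested with limma 3.58.1 (limma-trend, R 4.3.3) on log2(RPM + 1), two-sided, with Benjamini-Hochberg adjustment over all features and a threshold of 0.05. A fold on this scale understates the change of low features. The time course fit held 36 libraries in 12 groups of 3 after TMM scaling. AGO2 against total (14 libraries) used library totals, and the 8 AGO2 libraries alone used TMM. Same-numbered libraries deviated together in AGO2 (r from 0.194 to 0.386), not in the time course (-0.07 to 0.05). Control AGO2 libraries 1 to 4 correlated best with Dnmt1 KO libraries 2, 2, 4 and 4, so how the AGO2 libraries pair is not settled. The main fits used no block, and the replicate number as a block was an alternative. No 2 replicates agreed within sampling noise (lowest chi-square per degree of freedom 2.12 over 48 pairs). The scripts were tested on simulated data. Sequences were read from NCBIM37 with samtools 1.23.1, folded with RNAfold 2.7.2 and compared with RefSeq miRNAs. The clone-named loci other than BX470216.1 were aligned to the genome with blastn 2.17.0. The members and lists were chosen with earlier results of these data known. All 6 members, features overlapping or within 10 kb of one, and the 3 features most like each by Pearson's r were named. Alternatives were other scalings, filters, pseudocounts, tests and left-out libraries. The alternative with R1-suffixed libraries took day 25 from the unsuffixed libraries, since no library of day 25 carries the suffix.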

Additional observations from a re-analysis of the deposited data

Results flagged for a closer look

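In the 4 AGO2 libraries of control ESCs, CT010508.1 was lowest in replicate 4, at 8729 RPM against 11101 to 11572 RPM. The gap was 0.834 of the group's range, above Dixon's 95% critical value for 4 samples, which chance passes in about 1 group in 20.

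The effect of Dnmt1 deletion differed among days 3 to 25 for all 6 features in limma's F test, as for 31.5% of all features. The adjusted p was 4.55e-16 for BX470216.1, 5.72e-16 for Ccdc30, 7.65e-07 for AL844840.2, 2.50e-06 for AC113316.1, 1.63e-05 for Cdk8 and 0.00982 for CT010508.1. The call of Cdk8 was lost without the reads of AC113316.1 (adjusted p = 0.0935) and that of CT010508.1 without the filter on low values (adjusted p = 0.229).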

How the results depend on the processing

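Of 1328 alternative values for the members, 1247 kept their direction and side of the threshold, 30 lost and 14 gained a call, 1 moved beyond the replicate spread and 36 changed sign. Sign changes, on the log2 scale, were these. On day 6 AL844840.2 gave 0.0820 with library totals, 0.0421 with the R1-suffixed libraries and -0.132 to 0.0520 without single libraries. AC113316.1, Cdk8 and CT010508.1 gave -0.0183, -0.0801 and -0.0215 with median-ratio factors. Cdk8 gave -0.0314 without the filter and -0.17 without the reads of AC113316.1, and without single libraries AC113316.1 ran from -0.0457 to 0.148 and Cdk8 from -0.0858 to 0.0801. CT010508.1 gave -0.0475 on day 11 with library totals (-0.0130 to 0.149 without single libraries) and 0.0349 over days 3 to 25 with the R1-suffixed libraries (-0.0736 to 0.00868 without single libraries). In AGO2 against total, CT010508.1 gave 1.70 (TMM) and 0.0360 (replicate block) in control, -0.65 (scaled to miRNA reads) and -0.33 (AGO2 replicates 3 and 4 only, chosen after seeing the data) in Dnmt1 KO, with -0.0996 to 0.0360 and -0.14 to 0.24 without single libraries. For the difference between genotypes in AGO2 against total, TMM gave -0.42 (CT010508.1), -0.26 (BX470216.1) and -0.27 (Ccdc30), CT010508.1 gave -0.19 with replicates 3 and 4 only and -0.0771 to 0.302 without single libraries. Within AGO2, CT010508.1 gave 0.21 with library totals and -0.324 to 0.0458 without single libraries, and without the filter BX470216.1 gave -0.22 and Ccdc30 -0.18. The causes were not tested.

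Counts of features called moved by over 1.5 times as follows. Without the filter they were 61 for day 1 (98 before), 67 for day 3 (161), 291 for day 9 (475) and 502 for the F test (813), 15456 and 14798 for AGO2 against total (1410 and 1404), 363 for its difference between genotypes (176) and 329 within AGO2 (166). Each day fitted alone gave 852 for day 9, 447 for day 11 (223) and 375 for day 25 (904). The R1-suffixed libraries, with unsuffixed libraries for day 25, gave 80 for day 3, 306 for day 6 (595) and 224 for day 9. That fit also gave 321 for day 25, 392 over days 3 to 25 (769) and 295 for the F test. The voom test on reads gave 272 for day 3, 904 for day 9, 395 for day 11 and 421 for day 25. For the difference between genotypes, TMM gave 110, a pseudocount of 5 gave 442, total libraries of days 1 to 11 gave 444 and AGO2 replicates 3 and 4 only gave 338. With days 1 to 11, AGO2 against total gave 2181 and 2192, and averaged AGO2 subsets gave 70 within AGO2. Without single libraries the counts ran from 26 (without control replicate 3) to 108 for day 1, which fell to 35 without Dnmt1 KO replicate 1, from 96 (without Dnmt1 KO replicate 1) to 166 for day 3, which fell to 100 or 103 without control replicate 1 or 2, and from 103 to 231 for the difference between genotypes, where 3 day 9 total libraries moved it (Dnmt1 KO replicate 1 to 103 and replicate 3 to 110, control replicate 3 to 116).

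Splits of higher against lower calls moved with scaling. Library totals gave 102 and 11 for day 1 (74 and 24 before), 438 and 157 for day 6 (354 and 241), 242 and 248 for day 9 (317 and 158), 138 and 90 for day 11 (162 and 61), 365 and 574 for day 25 (464 and 440), 370 and 422 over days 3 to 25 (450 and 319) and 137 and 21 within AGO2 (113 and 53). TMM gave 348 and 1143 for AGO2 against total in control (167 and 1243).

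With the replicate number as a block, BX470216.1 (0.69) and Ccdc30 (0.73) passed within AGO2, where 187 features did. The block changed no other call of the members, and the time course numbers do not pair libraries (161 features called for the difference between genotypes, 755 over days 3 to 25). Depth limits most the 2 libraries titled none, in which AC113316.1 had 10 and 18 reads.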

Other observations

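The 2 libraries titled none, which the labels do not explain and which the methods' description of a pull-down without serum may correspond to, held only 57155 (control) and 9830 (Dnmt1 KO) reads. BX470216.1 was at 1855 RPM in control (106 reads, Wilson 95% interval 1534 to 2242) and 1628 RPM in Dnmt1 KO (16 reads, 1002 to 2643). The former lay above the day 9 total libraries of control (618.9 to 699.8 RPM) and its interval took in 2 of the 4 AGO2 libraries (2041 and 2114 RPM). The interval of the latter took in the total libraries of Dnmt1 KO (985.1 to 1045 RPM) and was below its AGO2 libraries (3259 to 6187 RPM). AL844840.2 was at 455 RPM (26 reads, 311 to 667 RPM) and 2848 RPM (28 reads, 1972 to 4114 RPM), far above its 2.99 to 42.5 RPM in the AGO2 libraries. AC113316.1 was at 175 RPM (10 reads) and 1831 RPM (18 reads). CT010508.1 was at 9605 and 5900 RPM, below or near its AGO2 levels of 8729 to 19828 RPM.

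In 2 of the 3 PGC libraries with the R1 suffix the depth was 60317 and 114631 reads. BX470216.1 had 0 reads of 60317 in the former, with a Wilson 95% upper limit of 63.7 RPM, and 2 reads in the latter. The third, of 1328606 reads, held 1267 RPM.

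miR-1195 shares 22 bases with BX470216.1, a mature sequence in RefSeq. The feature Mir1195 was at 0 in all 36 time course libraries, although BX470216.1 held 178.5 RPM or more in each of them.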
